A study of Mus musculus with 4 samples.

Results

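The nuclear genes for subunits of the mitochondrial respiratory chain and ATP synthase were examined in embryonic mouse forelimbs with and without Sonic hedgehog. Genes were taken by symbol (Nduf followed by a, b, c, s or v and a number, Uqcr, Cox4 to Cox8 with a letter, and Atp5) where the deposited level reached 1 in at least 2 of 4 libraries. Of the 17712 genes in the table, 76 matched and 73 passed: 35 of complex I, 8 of complex III, 13 of complex IV and 17 of complex V. The other 3, Cox7a1, Cox7b2 and Cox8b, stayed below 1 in every library. Levels are in CPM, reads relative to a library size that was adjusted with a TMM factor, so they are not plain shares of the reads.

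The libraries came from forelimbs of littermate Swiss Webster embryos, a stock that is outbred, with 33 to 35 somites. The age label reads E10.25 and the source label E10.5. One group of 2 libraries was wild type and the other group of 2 was Shh null, lacking the signalling protein that patterns the limb bud from its posterior side. The labels do not describe the null allele, and RNA was isolated with TRIzol. The design text calls the replicates technical and the labels do not tie libraries to separate embryos, so p-values here cover the spread among these libraries alone.

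Oxidative phosphorylation couples electron transfer along the inner mitochondrial membrane to ATP synthesis. Complex I passes electrons from NADH to ubiquinone, complex III passes them from ubiquinol to cytochrome c, and complex IV passes them to oxygen. All of these pump protons, and complex V, the ATP synthase, lets the protons flow back and makes ATP. A few hydrophobic core subunits are encoded by mitochondrial DNA, and the other subunits are nuclear genes whose proteins are imported. The mitochondrially encoded subunits had no row in the table and were not analysed here. An early limb bud consists mostly of proliferating mesenchyme under a thin ectoderm.

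None of the 73 subunit genes was called different between Shh null and wild-type forelimbs (limma, adjusted p under 0.05 over 13224 tested genes, of which 2.48% were called). The lowest adjusted p among them was 0.136 in limma, 0.136 in edgeR's quasi-likelihood test and 0.0884 in DESeq2, and no subunit gene was called by either of the other tools. At an unadjusted p under 0.05, limma had 8 subunit genes lower in Shh null (11.0%, against 9.02% of all tested genes) and 0 higher (against 9.50%). Of tested genes with a mean of at least 10 CPM, 11.0% were lower and 7.31% higher at this limit. At the same limit edgeR had 6 of the 73 lower and DESeq2 7, each with 0 higher. Over all 13224 tested genes edgeR had 1110 lower and 1321 higher, and DESeq2 had 1017 lower and 876 higher. The share lower was thus near that of all genes. In the authors' deposited table, 0 of the 73 had a false discovery rate under 0.05, and the lowest was 0.120, for Atp5g3.

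The fitted changes were small and mostly below 0. On the scale of log2(CPM + 1), 59 of the 73 genes (80.8%) were below 0, compared with 50.1% of all tested genes and 57.6% of the 9266 tested genes with a mean of at least 10 CPM. The median was −0.11, beside −0.0005 for all tested genes and −0.04 for the abundant ones. It was −0.04 without wild type 1, −0.16 without wild type 2, −0.05 without Shh null 1 and −0.17 without Shh null 2. The count below 0 depended on scaling and on single libraries: it was 43 under total-count scaling, 49 under quantile normalization, 48 without wild type 1 and 46 without Shh null 1. Under total-count scaling the subunit genes had a median of −0.03 while all tested genes had a median of 0.073. Counts below 0 under that scaling, here and further on, stand beside this higher median of all tested genes. The changes ranged from −0.41 (Atp5g1) to 0.33 (Cox6b2). For 61 of the 73 genes the 95% interval lay within a 1.5-fold change in either direction, and for 12 it reached that size.

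**Figure D1:**
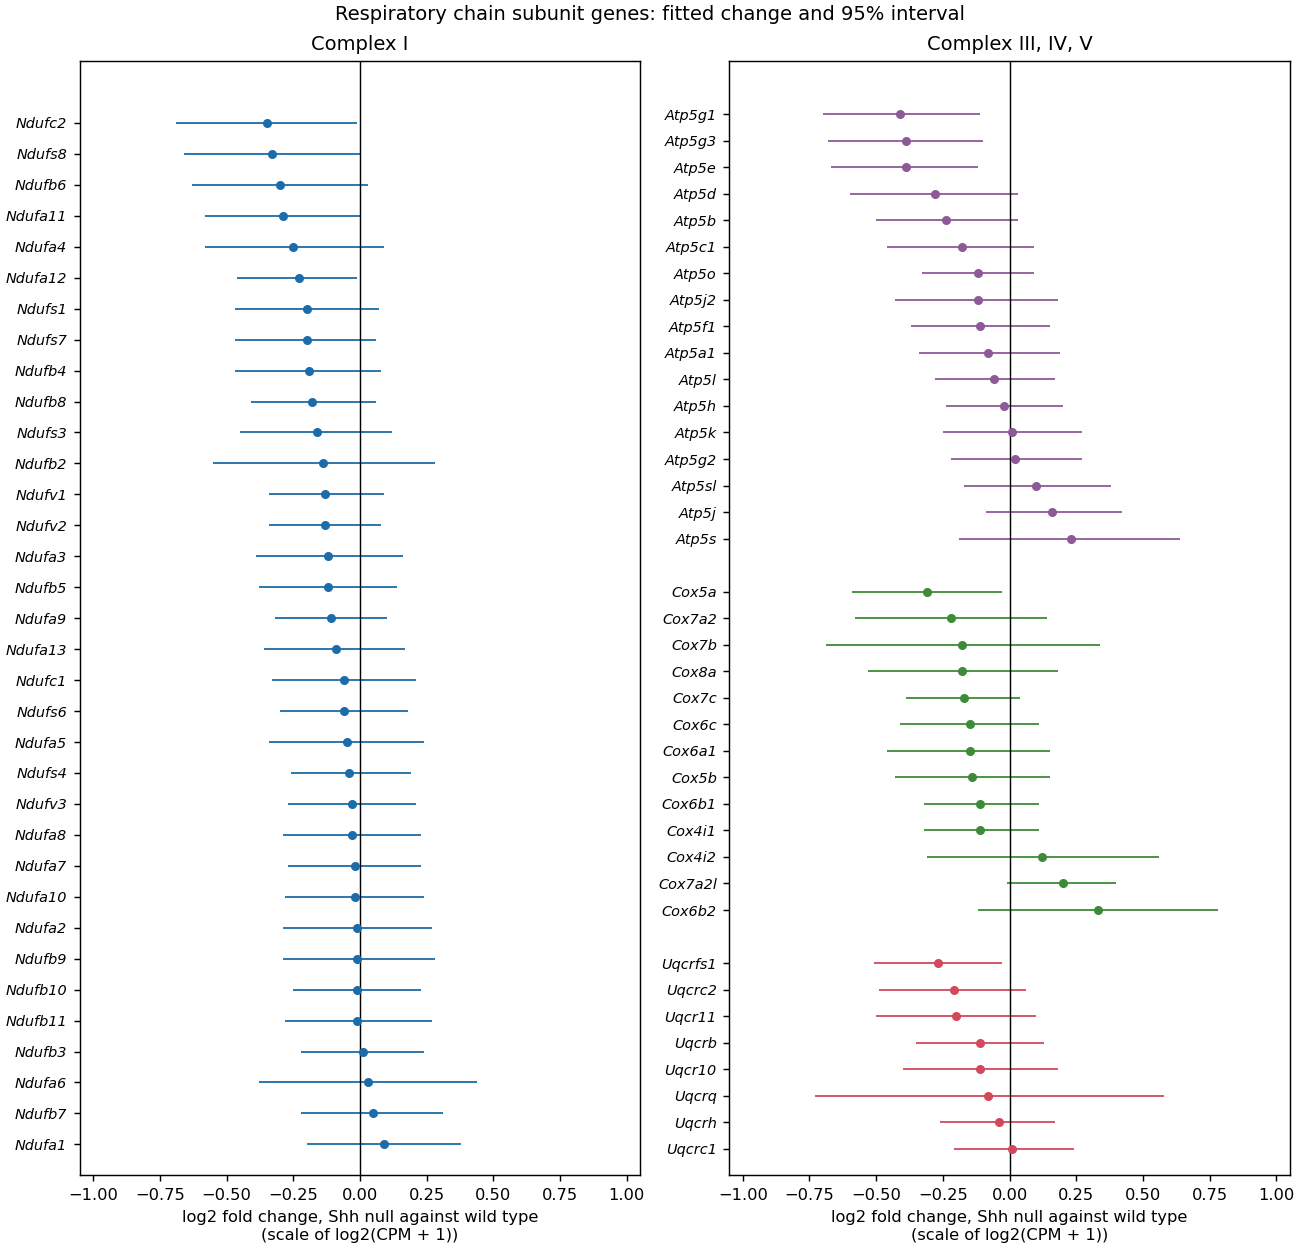
Fitted log2 fold change of Shh null against wild type for 72 of the 73 genes (x axis, scale of log2(CPM + 1)); points are limma estimates, bars are 95% intervals, and genes are ordered within complexes I, III, IV and V. Of the 72 points, which lie between −0.41 and 0.33, 59 are below 0 (43 under total-count scaling), and the interval of Uqcrq is the widest.

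Summed over the 73 genes, the level was 11910 and 11294 CPM in wild type 1 and 2 and 10367 and 10800 CPM in Shh null 1 and 2. Both Shh null sums were below both wild-type sums, by 8.78% on average. Under total-count scaling the sums were 11458 and 11107 against 10771 and 10986 CPM, still apart, and the difference was 3.58%. With 2 libraries a group, the smallest two-sided p of an exact permutation test is 0.333, so no test of the sums was made. In bulk RNA, fewer cells of a type and less RNA per cell cannot be told apart. The sums of complex V did not overlap between genotypes (5670 and 5578 against 5069 and 5085 CPM), nor did those of complex IV (1773 and 1640 against 1528 and 1626) and complex III (1217 and 1147 against 1052 and 1139). Complex I overlapped, at 3251 and 2928 CPM in wild type and 2717 and 2949 CPM in Shh null. Under total-count scaling complex V stayed apart (5454 and 5486 against 5267 and 5173 CPM), while complex IV (1706 and 1613 against 1588 and 1655 CPM) and complex III (1171 and 1128 against 1093 and 1158 CPM) overlapped. Atp5b alone gave 31.9% of the complex V sum. The difference in the complex V sum was −9.72%, −7.12% without Atp5b and −4.57% under total-count scaling.

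**Figure D2:**
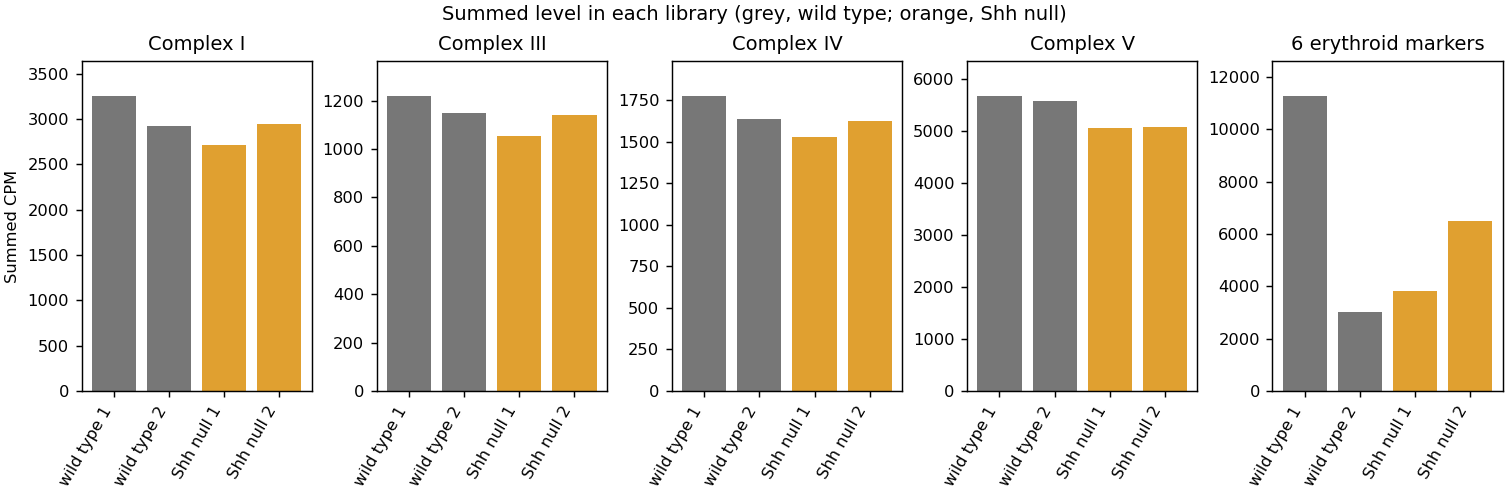
Summed CPM of the genes of each complex and of 6 erythroid marker genes (y axes, starting at 0 and scaled separately for each panel) in the 4 libraries; grey bars are wild type, orange bars Shh null. The complex sums differ by less than the erythroid sums, which run from 3010 to 11251 CPM.

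Gene by gene, both Shh null libraries lay below both wild-type libraries for 21 of the 73 genes (28.8%), near the 25.0% of all tested genes. Both lay above for 4 (5.48%), fewer than the 25.1% of all tested genes: Cox6b2, Cox7a2l, Atp5j and Atp5sl. For the other 48 the groups overlapped. Under total-count scaling the counts were 10 below (13.7%, against 16.1% of all tested genes) and 9 above (12.3%, against 35.0%). All 10 and the same 4 genes above were apart under both scalings. The 10 include Uqcrfs1, Cox5a, Atp5b, Atp5e, Atp5g1 and Atp5g3, whereas Ndufs8, Ndufv1, Ndufv2 and Atp5d then overlapped. Ndufs6 changed sides: it was among the 21 below on the deposited scale and among the 9 above under total-count scaling.

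Within complex I, 30 of the 35 genes were below 0 (18 under total-count scaling), with a median change of −0.09, and 0 were called. Leaving out a library moved this median between −0.04 (wild type 1) and −0.17 (wild type 2). The 7 core genes encode the subunits that bind the flavin, the iron-sulfur clusters and the quinone. Their median was −0.16, against −0.06 for the 28 accessory genes. Under total-count scaling these medians were −0.08 and 0.02, beside 0.073 for all tested genes. Ndufs8, a core subunit carrying iron-sulfur clusters, measured 40.7 and 33.7 CPM in wild type and 25.8 and 33.1 CPM in Shh null. Both null values were below both wild-type values, but wild type 2 and Shh null 2 almost touched (log2 fold change −0.33 ± 0.15 SE, limma adjusted p = 0.275). The NADH-oxidising subunits Ndufv1 (−0.13 ± 0.10 SE) and Ndufv2 (−0.13 ± 0.09 SE) did not overlap between genotypes, although neither passed the test.

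Among the accessory genes of complex I, Ndufc2, which encodes a small membrane-arm subunit, had the lowest fitted change. It measured 133 and 102 CPM in wild type and 79.6 and 104 CPM in Shh null, so the groups overlapped (−0.35 ± 0.15 SE, limma adjusted p = 0.262). Its change was −0.53 when wild type 2 was left out and wild type 1 stood alone. Ndufb6, another membrane-arm subunit gene, had −0.52 under the same omission and −0.30 with all libraries. Its 4 libraries were at 54.6, 40.1, 36.5 and 39.1 CPM in the order wild type 1 and 2, Shh null 1 and 2. At the other end stood Ndufa1 (0.09 ± 0.13 SE) and Ndufb7 (0.05 ± 0.12 SE), whose groups overlapped on the deposited scale. Ndufa4, listed here by its symbol although its protein is now assigned to complex IV, was the most abundant of these genes per length. It measured 370 and 280 CPM in wild type and 241 and 305 CPM in Shh null, also overlapping (−0.25 ± 0.15 SE, limma adjusted p = 0.420).

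In complex III, 7 of 8 genes were below 0 (6 under total-count scaling) and 0 were called. The median was −0.11, and −0.04 without Shh null 1 and −0.24 without Shh null 2. Under total-count scaling it was −0.03, beside 0.073 for all tested genes. Uqcrfs1 encodes the Rieske iron-sulfur protein that takes electrons from ubiquinol. It measured 146 and 137 CPM in wild type and 108 and 127 CPM in Shh null, with no overlap (17.0% lower on average; log2 fold change −0.27 ± 0.11 SE, limma adjusted p = 0.221). The gene of the core scaffold protein Uqcrc2 measured 194 and 174 against 142 and 177 CPM, and its groups overlapped (−0.21 ± 0.12 SE). Uqcrc1, the partner scaffold, was 196 ± 11.3 and 198 ± 13.0 CPM (SD, n = 2) and the only complex III gene above 0 (0.01 ± 0.10 SE). Uqcrq, a small subunit next to cytochrome b, differed more between the wild-type libraries (7.30 and 16.7 CPM) than between the null libraries (9.75 and 11.3 CPM). Its standard error of 0.29 was the largest of the 73 genes.

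In complex IV, 10 of 13 genes were below 0 (10 under total-count scaling, 7 without wild type 1) and 0 were called. The median was −0.15, and −0.06 under quantile normalization and −0.02 without wild type 1. Under total-count scaling it was −0.07, beside 0.073 for all tested genes. Cox5a, a subunit on the matrix side, measured 68.8 and 67.3 CPM in wild type and 48.7 and 61.4 CPM in Shh null. The groups did not overlap, and the null libraries differed from each other more than the wild-type libraries did (−0.31 ± 0.12 SE, limma adjusted p = 0.223). Cox7a2 measured 152 and 121 against 98.5 and 137 CPM and overlapped (−0.22 ± 0.16 SE, limma adjusted p = 0.504). Cox7a2l went the other way, with 161 and 157 CPM in wild type and 179 and 185 CPM in Shh null. This gene is related to Cox7a2, and its protein joins complexes III and IV into supercomplexes. Its groups did not overlap and its change was 0.20 ± 0.09 SE (limma adjusted p = 0.292). Cox6b2 had the highest fitted change of all, but at low levels of 2.84 and 2.42 CPM in wild type and 2.94 and 4.25 CPM in Shh null, from as few as 44 reads in a library (0.33 ± 0.20 SE, limma adjusted p = 0.418).

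Paralog pairs of complex IV were each dominated by the widely expressed form. Per kilobase of transcript, Cox4i1 made up 98.3% to 98.8% of the Cox4i1 and Cox4i2 sum in the 4 libraries, and Cox4i2, the form known from lung and low oxygen, made up 1.19% to 1.67%. Cox6b1 held 98.2% to 99.0% over Cox6b2, the testis form. Cox7b held 99.7% to 99.9% over Cox7b2, and Cox8a held 99.6% to 100% over Cox8b. Heart and muscle forms were at the margin: Cox7a1 was between 0.503 and 0.871 CPM, and Cox8b was at 0 in Shh null 1, where 0 reads allow up to 0.124 CPM by counting error, and at 0.0351 to 0.0915 CPM in the other libraries. Cox6a1 measured 148 and 180 CPM in wild type and 166 and 130 CPM in Shh null. Its muscle paralog Cox6a2 and the gene Cox8c were not analysed here.

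The share of Cox7a2 among Cox7a1, Cox7a2 and Cox7a2l was the least even of these. Per kilobase it was 60.5% and 55.4% in the wild-type libraries against 47.1% and 54.5% in the null libraries, while Cox7a2l took 39.1% and 44.1% against 52.2% and 45.1%. Both null shares of Cox7a2 were below both wild-type shares, narrowly so for wild type 2 and Shh null 2. No test was made of these shares.

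Complex V held the subunit genes with the lowest adjusted p-values. Of its 17 genes, 12 were below 0 (9 under total-count scaling or quantile normalization), the median was −0.11 (−0.0006 under quantile normalization, −0.03 without wild type 1) and 0 were called. All 5 genes of the F1 head, where ATP is made, were below 0 (4 under total-count scaling), with a median of −0.24. Atp5e, the epsilon subunit of the central stalk, measured 48.5 and 51.0 CPM in wild type and 34.1 and 41.5 CPM in Shh null. The groups did not overlap (24.0% lower; −0.39 ± 0.12 SE, limma adjusted p = 0.136). Atp5b encodes the catalytic beta subunit and was the most abundant gene, with 1831 and 1862 CPM in wild type and 1531 and 1606 CPM in Shh null. The gap between genotypes was larger than the spread within either, yet the fit gave −0.24 ± 0.12 SE (limma adjusted p = 0.315). Atp5a1, the alpha partner of Atp5b in the same ring, overlapped at 1161 and 1276 against 1228 and 1086 CPM. The gamma subunit gene Atp5c1 also overlapped, at 606 and 492 against 452 and 510 CPM. The delta subunit gene Atp5d did not, at 36.5 and 29.0 against 28.0 and 25.2 CPM (−0.28 ± 0.14 SE, limma adjusted p = 0.313).

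The peripheral stalk and the dimer-forming membrane subunits had fitted changes from −0.12 to 0.16. Atp5o and Atp5f1 of the stalk had changes of −0.12 ± 0.09 and −0.11 ± 0.12 (SE), and Atp5h had −0.02 ± 0.10. Atp5j, coupling factor F6 of the same stalk, measured 50.3 and 45.3 CPM in wild type and 50.4 and 56.9 CPM in Shh null; the groups were barely separated and the change was 0.16 ± 0.11 SE (limma adjusted p = 0.483). Atp5k (0.01), Atp5l (−0.06) and Atp5j2 (−0.12), which sit where ATP synthases form dimers, all overlapped. Atp5s and Atp5sl match by symbol but are related factors and not structural subunits of the synthase. Atp5s was the least abundant complex V gene per length and had a change of 0.23 ± 0.18 SE.

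The c ring of the ATP synthase, the rotor that protons turn, is encoded by 3 genes whose precursor proteins differ in the import sequence and yield the same mature peptide. Atp5g1 measured 44.2 and 35.8 CPM in wild type and 29.2 and 30.3 CPM in Shh null (25.5% lower; −0.41 ± 0.13 SE, limma adjusted p = 0.141). Atp5g3 measured 177 and 234 against 160 and 150 CPM (24.6% lower; −0.39 ± 0.13 SE, limma adjusted p = 0.151). In both, the null libraries were below both wild-type libraries. Atp5g2 measured 305 and 280 CPM in wild type and 322 and 273 CPM in Shh null, and its groups overlapped (0.02 ± 0.11 SE, 95% interval −0.22 to 0.27). Leaving out a library moved the change of Atp5g1 between −0.26 (without wild type 1) and −0.55 (without wild type 2). That of Atp5g3 moved between −0.19 (without wild type 2) and −0.59 (without wild type 1), so opposite libraries gave the largest changes. Whether the 3 genes differ from each other in response was not tested.

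Per kilobase, Atp5g2 made up 68.2% and 62.1% of the c ring transcripts in the wild-type libraries against 72.7% and 70.4% in the null libraries, so both null shares were above both wild-type shares. Atp5g3 made up 24.5% and 32.0% against 22.4% and 23.8%, and Atp5g1 7.32% and 5.87% against 4.88% and 5.78%. With the longest transcript models the Atp5g1 share was 1.40% and 1.06% against 0.927% and 1.10%, which overlap, and the null shares of Atp5g2 (65.8% and 63.7%) were again above the wild-type ones (62.0% and 53.6%). Summed over the 3 genes the level was 526 and 549 CPM in wild type and 511 and 453 CPM in Shh null. The transcript model of Atp5g2 shares 100% of its 50-base stretches with other annotated genes and that of Atp5g1 66.0%, while Atp5g3 shares none, so reads of the first 2 may have been split or lost in counting. None of the genes that share these stretches has a row in the table. The genes lie on chromosome 11 (Atp5g1, 96068852 to 96075670), chromosome 15 (Atp5g2, 102662864 to 102672352) and chromosome 2 (Atp5g3, 73908447 to 73911326), all on the minus strand (GENCODE M21, GRCm38). Stretches before their RefSeq starts are shown because these 3 genes make the same peptide while their levels were not equal. Each is the 120 bases nearest the start that no exon of the gene covers, from build GRCm38.p6, written 5′ to 3′ on the gene's strand. Those of Atp5g1 and Atp5g3 lie directly outside the gene bounds given above. That of Atp5g2 lies inside its gene bounds, 81 to 200 bases before the RefSeq start, between annotated exons.
Atp5g1, chr11:96075671-96075790, minus strand: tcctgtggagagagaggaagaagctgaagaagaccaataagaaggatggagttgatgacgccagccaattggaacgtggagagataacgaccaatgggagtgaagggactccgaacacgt
Atp5g2, chr15:102671128-102671247, minus strand: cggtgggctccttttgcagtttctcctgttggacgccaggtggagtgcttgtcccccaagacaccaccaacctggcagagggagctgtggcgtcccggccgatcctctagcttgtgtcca
Atp5g3, chr2:73911327-73911446, minus strand: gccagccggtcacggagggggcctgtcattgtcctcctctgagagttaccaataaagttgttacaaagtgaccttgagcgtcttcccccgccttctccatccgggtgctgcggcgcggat
None of the 3 motifs searched among the subunit promoters (given with the promoter results) stands in these stretches, so they hold no capitals; the wider Atp5g2 window has 1 match for NRF1.

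Levels per length spanned a wide range within each complex. Over the 4 libraries, the mean CPM per kilobase was highest for Ndufa4 in complex I (490, next Ndufa2 at 225), Uqcrh in complex III (598, next Uqcrb at 262), Cox6b1 in complex IV (506, next Cox7c at 342) and Atp5b in complex V (891, next Atp5g2 at 668). The lowest were Ndufv3 (31.6), Uqcrq (27.9), Cox4i2 (5.18) and Atp5s (5.94). The median was 69.4 CPM per kilobase in complex I, 147 in complex III, 158 in complex IV and 189 in complex V. The subunits of a complex are mostly present once in the protein assembly, whereas the alpha, beta and c subunits of complex V are present in several copies. Atp5a1, the gene of the alpha subunit, was at 481 CPM per kilobase. Whether copy number bears on these levels was not tested. Length was that of the shortest principal transcript model, and with the longest one the lowest complex I gene was Ndufb2 (12.4), Uqcrq was at 7.42 and the second complex V gene was Atp5a1 (481).

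**Figure D3:**
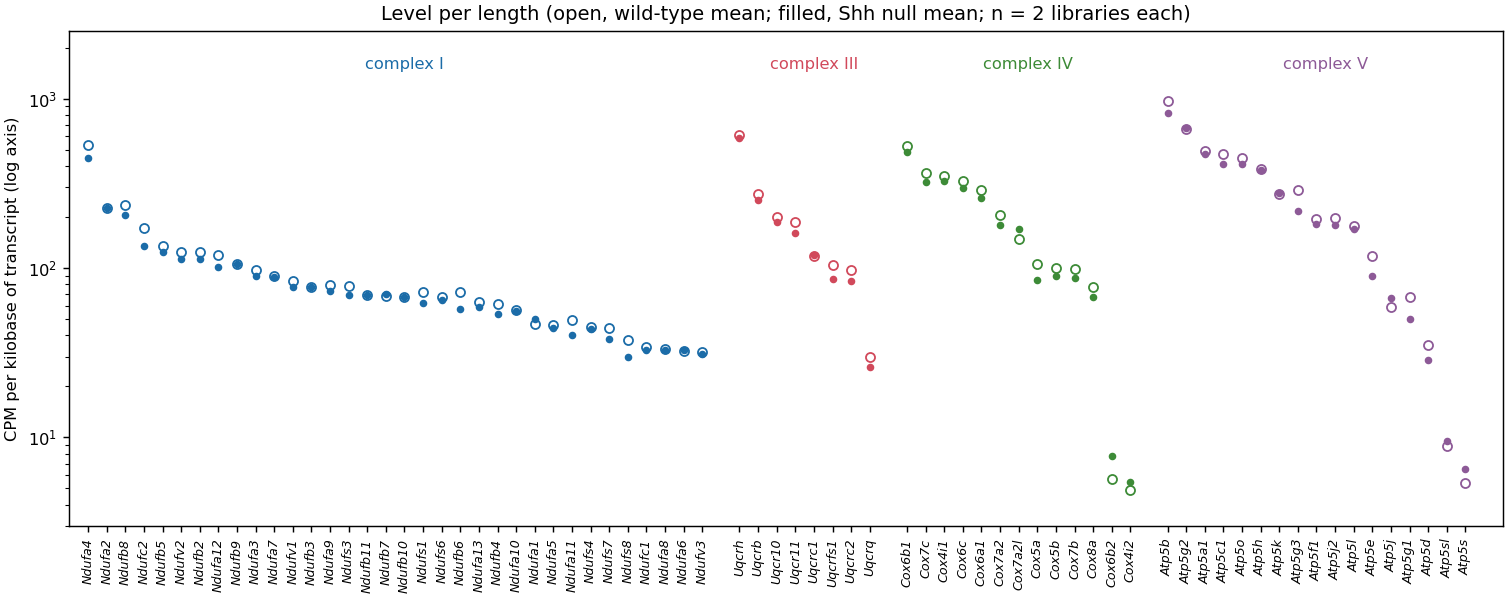
Mean level per kilobase of transcript (y axis, log scale, CPM per kilobase) for 72 of the 73 genes ordered by level within each complex; open circles are the mean of 2 wild-type libraries and filled circles the mean of 2 Shh null libraries. The genotypes differ far less than the genes of a complex, which span from 5.18 for Cox4i2 to 506 for Cox6b1 in complex IV.

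The subunit genes varied together between libraries of the same genotype. Wild type 1 was the highest of the 4 libraries for 46 of the 73 genes (63.0%, against 28.3% of all tested genes), and Shh null 1 was the lowest for 40 (54.8%, against 29.6%). For 42 genes (57.5%, against 29.1%) wild type 1 exceeded wild type 2 and Shh null 2 exceeded Shh null 1. The median differences were 0.14 between the wild-type libraries and 0.11 between the null libraries on the log2 scale, as large as the median difference between genotypes. Across genes, Spearman's rho between the 2 differences was 0.43 for the 73 genes and 0.19 for all tested genes, as a description of genes that share their libraries. Complexes III and IV followed this order in 6 of 8 and 9 of 13 genes, complex I in 21 of 35 and complex V in 6 of 17. High values in wild type 1 and low values in Shh null 1 were not particular to the subunit genes. Wild type 1 was highest for 71.1% of mitochondrial ribosome, 55.1% of cytosolic ribosome and 58.3% of proteasome genes, sets described further on. Shh null 1 was lowest for 72.4%, 81.2% and 72.2% of them. The shares were 32.4% and 48.6% for assembly factors and 31.2% and 75.0% for citric acid cycle genes.

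Red blood cell markers had the same order of libraries within each genotype. The summed level of the 6 erythroid markers in the table, of 8 listed, was 11251 CPM in wild type 1, 3010 in wild type 2, 3834 in Shh null 1 and 6498 in Shh null 2. All 6 were higher in wild type 1 than 2 and in Shh null 2 than 1. The part of these cells in the subunit values was not tested.

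**Figure D4:**
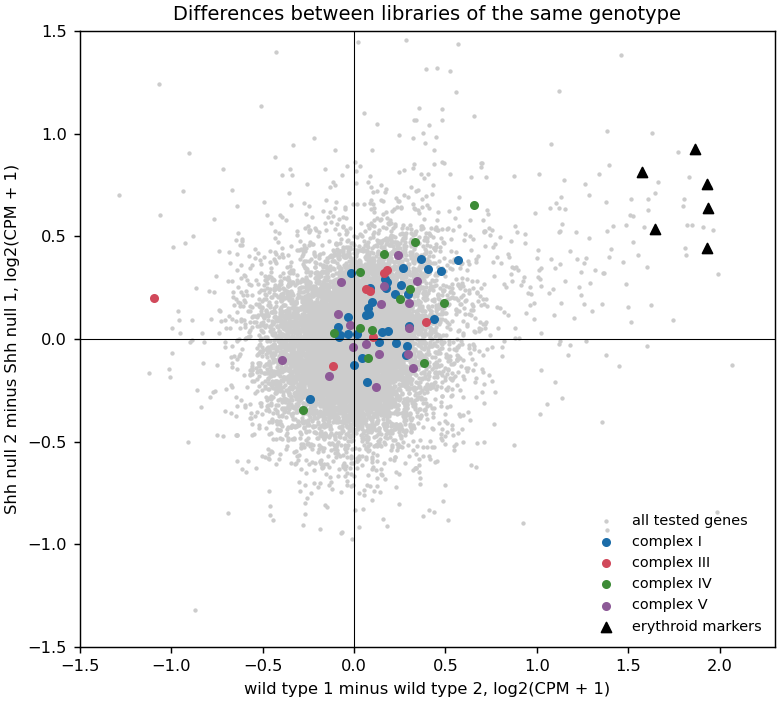
Difference between libraries of the same genotype for each gene, wild type 1 minus wild type 2 (x axis) against Shh null 2 minus Shh null 1 (y axis), both in log2(CPM + 1); grey points are tested genes, coloured points the subunit genes by complex, triangles 6 erythroid markers. The upper right field, above 0 on both axes, holds 42 of the 73 subunit genes and all 6 erythroid markers; the few genes beyond the axes are not drawn.

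Other properties of the libraries also moved with genotype. Shh measured 11.4 and 7.88 CPM in wild type and 3.15 and 2.42 CPM in Shh null, in the direction of the labels. The 5 mesenchyme markers summed to 751 and 769 CPM in wild type and 1115 and 1095 CPM in Shh null, and 3 of them (Prrx1, Prrx2 and Twist1) were called higher. Sums were also higher in both null libraries for the macrophage markers (9.76 and 10.7 against 20.9 and 18.8 CPM), the surface ectoderm markers (303 and 295 against 333 and 345 CPM) and the pericyte markers (5.72 and 5.73 against 9.41 and 8.65 CPM). Of the 4 pericyte markers, Rgs5, Kcnj8 and Abcc9 did not pass the filter. The remaining one, Cspg4, made up most of that sum, at 4.14 and 4.02 against 7.88 and 6.91 CPM (limma adjusted p = 0.0555). Cardiac markers were near 0 in all libraries and lower in both null libraries (0.526 and 1.93 against 0.415 and 0.457 CPM). The sums overlapped between genotypes for endothelial markers (164 to 217 CPM) and myogenic markers (27.0 to 31.0 CPM). All 5 sex-linked genes were called, Xist higher in Shh null (225 and 152 against 522 and 468 CPM) and 4 Y-linked genes lower. The part of any of these in the subunit values was not tested.

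Subunit genes on the X chromosome can be read beside those sex-linked genes. Ndufa1 measured 20.2 and 19.1 CPM in wild type and 20.1 and 22.0 CPM in Shh null. Ndufb11 measured 62.6 and 63.3 against 55.9 and 70.3 CPM. Cox7b measured 121 and 76.4 against 67.5 and 107 CPM. The groups of all 3 overlapped on the deposited scale and 0 were called. Under total-count scaling both null libraries of Ndufa1 were above both wild-type libraries, as for 35.0% of all tested genes. Ndufb11 and Cox7b still overlapped. Cox7b had the larger spread within genotypes, and its change was −0.18 with all libraries and −0.50 without wild type 2.

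Sequence shared with other genes bears on how reads of these short, often duplicated transcripts were assigned. Of the 73 genes, 30 had no 50-base stretch in common with another annotated transcript, 19 shared at least 20% of them, and 11 had at least 20% of their exon bases under exons of another gene. In the 29 genes with neither sharing nor overlap, 21 were below 0 (15 under total-count scaling) and the median was −0.08, beside 59 of 73 and −0.11. Uqcrfs1, Atp5e, Atp5g3, Ndufc2 and Ndufs8 had no shared stretch, and Cox5a shared 32.0%.

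Promoters of the subunit genes were searched for the binding motifs of 3 factors known to act on respiratory genes. The windows ran from 250 bases before to 50 bases after the RefSeq start (GRCm38.p6); 62 of the 73 genes matched, with 68 promoters. Motifs were searched on both strands as CGCATGCG for NRF1 (nuclear respiratory factor 1), CCGGAAGT for ETS factors such as GABP and AAGATGGC for YY1. The NRF1 letters were in 13.2% of subunit promoters, 3.7% of the promoters of tested genes and 1.87% of all 32851 promoters. The YY1 letters were in 17.6%, 4.21% and 2.75%, and the ETS letters in 7.35%, 7.75% and 3.89%, in the same order. A match is a description of these letters and not a site.

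The 9 genes with NRF1 letters are shown with up to 10 bases on either side, motif in capitals, 5′ to 3′ on the gene's strand so that the bases around the searched letters can be compared across complexes I, III, IV and V.
Atp5g2, chr15:102671071-102671098, minus strand: gctccggccgCGCATGCGcagagccttc
Atp5j, chr16:84835106-84835133, minus strand: ggccagaataCGCATGCGtacagtgcag
Atp5k, chr5:108434431-108434458, minus strand: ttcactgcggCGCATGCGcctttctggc
Atp5l, chr9:44920966-44920992, minus strand: aaccaataaCGCATGCGcatttccccc
Cox6a1, chr5:115349102-115349129, minus strand: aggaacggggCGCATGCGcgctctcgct
Ndufa11, chr17:56717693-56717720, plus strand: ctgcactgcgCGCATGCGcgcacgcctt
Ndufa8, chr2:36049330-36049357, minus strand: tcgctggagaCGCATGCGcagatggtac
Uqcr11, chr10:80406809-80406836, minus strand: atcgccttcaCGCATGCGctatacgtct
Uqcrc1, chr9:108936669-108936696, plus strand: ctccgctctgCGCATGCGcagcgcggct
Of these 9 matches, 7 lay wholly before the RefSeq start, that of Uqcr11 ran across it and that of Uqcrc1 lay after it. Of those before it, the matches of Atp5g2, Atp5j, Atp5k and Ndufa8 nevertheless lay inside the gene bounds of GENCODE M21. The median log2 fold change was −0.03 for the 9 genes and −0.12 for the 53 matched genes without the letters, and their values ran from −0.29 (Ndufa11) to 0.16 (Atp5j).

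The YY1 letters stood in 11 genes, and in 9 of them the ATG inside the motif was the annotated start codon. Examples from complexes I and V show the motif in capitals across the start of translation.
Atp5j2, chr5:145191501-145191528, minus strand: ccaggacttcAAGATGGCgtcactcggt
Ndufa9, chr6:126849098-126849125, minus strand: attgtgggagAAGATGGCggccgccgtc
Ndufc1, chr3:51408916-51408943, minus strand: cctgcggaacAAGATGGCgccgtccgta
Ndufs7, chr10:80249463-80249490, plus strand: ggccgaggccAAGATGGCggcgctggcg
The median log2 fold change was −0.11 for the 11 genes with the letters and −0.13 for the 51 without. Atp5j was the gene with both NRF1 and YY1 letters.

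No gene that works beside the respiratory chain was called in the lists examined. Complex II, which feeds electrons from succinate and is encoded by 4 nuclear genes, had 0 called and a median of −0.10; Sdhd, one of its membrane anchors, had the change furthest from 0 (−0.16 ± 0.10 SE). Of 6 tested genes for subunits or proteins acting with them, with symbols outside the patterns, 0 were called. Among them Cycs, cytochrome c itself, measured 228 and 204 CPM in wild type and 135 and 188 CPM in Shh null, without overlap (−0.44 ± 0.15 SE, limma adjusted p = 0.156). Of 37 tested assembly factors, 0 were called, 27 were below 0 (22 under total-count scaling) and the median was −0.10. Ndufaf4, an assembly factor of complex I, measured 72.0 and 62.9 against 40.8 and 56.4 CPM, without overlap (−0.48 ± 0.15 SE, limma adjusted p = 0.136).

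The citric acid cycle, which supplies the NADH, had 15 of 16 tested genes below 0 (12 under total-count scaling), a median of −0.12 and 0 called. Idh3a, the catalytic subunit of isocitrate dehydrogenase, measured 107 and 113 CPM in wild type and 80.3 and 89.9 CPM in Shh null, a gap wider than the spread in either group (−0.37 ± 0.10 SE, limma adjusted p = 0.0943). Of 14 tested regulators of mitochondrial biogenesis, 8 were below 0 (5 under total-count scaling), the median was −0.03 and 0 were called. Gabpa, the DNA-binding subunit of GABP, measured 157 and 170 against 132 and 145 CPM (−0.24 ± 0.10 SE, limma adjusted p = 0.237). Exons of Gabpa cover 22.5% of the exon bases of its neighbour Atp5j, so reads of the pair may mix. Nrf1 and Tfam, the mitochondrial DNA packaging factor, had −0.13 ± 0.10 and −0.18 ± 0.09 (SE).

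Mitochondrial ribosome genes, which make the mitochondrially encoded subunits, had none called by limma either. Of 76 tested, 67 were below 0 (59 under total-count scaling) and the median was −0.17. Both null libraries were below both wild-type libraries for 42 of them, 55.3%, against the 25.0% of all tested genes (34.2% against 16.1% under total-count scaling). Mrpl38, a protein of the large subunit, had the change furthest from 0, with 42.3 and 35.6 CPM in wild type and 29.7 and 28.2 CPM in Shh null (−0.41 ± 0.13 SE, limma adjusted p = 0.126).

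**Figure D5:**
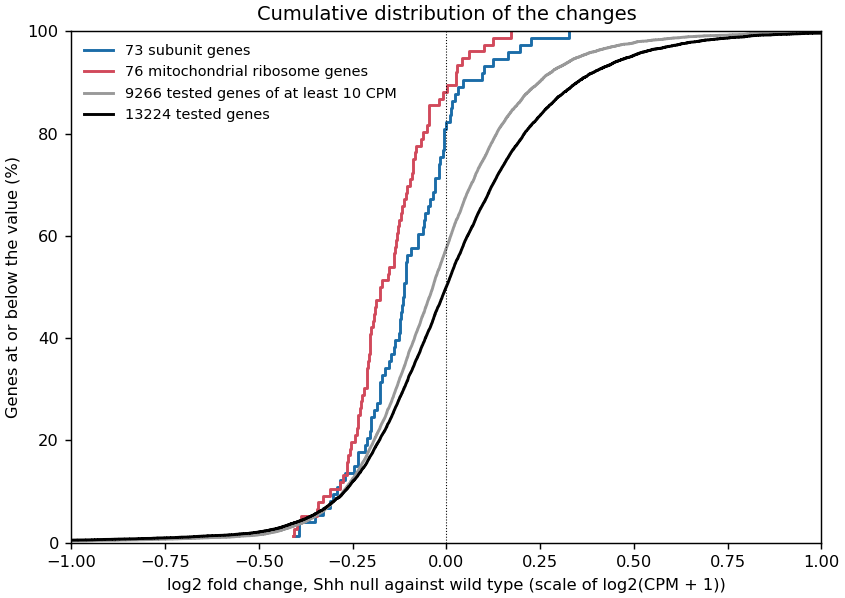
Cumulative share of genes (y axis, percent) at or below each log2 fold change of Shh null against wild type (x axis, scale of log2(CPM + 1)) for the 73 subunit genes, 76 mitochondrial ribosome genes, 9266 tested genes of at least 10 CPM and all 13224 tested genes. The subunit curve crosses 0 near 80.8% and the curve of all genes at 50.1%. Genes share libraries, so the curves are descriptions. Under total-count scaling the subunit median was −0.03 and that of all tested genes 0.073.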

How the data were processed

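RNA sequencing was analysed in 4 forelimb libraries, 2 wild type and 2 Shh null. Per the submitters' processing notes, the tools were TopHat2 2.0.9, HTSeq 0.5.4p5, edgeR 3.4.2 and SAMtools with build mm10; annotation and strandedness: not given in the sources used here. The authors deposited a signal per gene and library, in a file that calls it a normalized count. Every value (100%, tolerance 0.001 reads) was a whole multiple of a column's smallest positive value, and edgeR's TMM factors recomputed from those reads gave the deposited scale, so the signal was read as CPM. Libraries held 18456502 to 29620468 reads and a read was worth 0.0351 to 0.0551 CPM. Subunit genes had 44 to 52161 reads per library, 1.08% to 1.15% of all reads. The authors' deposited table of log2 fold changes and p-values is quoted only where named.

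Genes of at least 1 CPM in at least 2 libraries were fitted as log2(CPM + 1) with limma 3.58.1 (R 4.3.3, intensity trend, genotype only), Benjamini-Hochberg adjusted. Log2 values understate changes of low genes. Recovered reads were also tested with edgeR 4.0.16 and DESeq2 1.42.0. Other alternatives were pseudocounts, filters, scalings, the replicate block and leaving out each library. Gene models were GENCODE M21 (73 of 73 matched); length was that of the shortest best-supported principal transcript. Floors of 3 reads cover counting error only.

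Members and lists were chosen with earlier results of these data known. Genes named by rule were, per complex, the 2 with the largest change in each direction and the highest and lowest per length, the paralog sets, the X-linked genes and Uqcrfs1, and per related list the gene with the largest change; others were named after their values were seen. The values of 1 gene are not reported here, and the gene stays in the counts, sums and medians.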

Additional observations from a re-analysis of the deposited data

How the results depend on the processing

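No subunit gene was called under the pseudocount, filter, scaling, edgeR or DESeq2 alternatives. Leaving out a library gave 0 to 4 subunit genes lower and 0 higher. Over all tested genes, 164 were called higher and 164 lower; without a filter these were 79 and 91, with DESeq2 253 and 273, and leaving out a library 15 to 386 and 41 to 416. Such fits leave a lone library in 1 group, which is assumed to vary like the others. The median of complex V was −0.0006 under quantile normalization and −0.03 under total-count scaling. Leaving out a library moved the medians between −0.04 and −0.24 (complex III), −0.02 and −0.19 (complex IV) and −0.03 and −0.15 (complex V). The summed change of complex V was −7.12% without Atp5b. Under total-count scaling, chosen after seeing the data, summed changes were −3.58% (all), −2.07% (III), −2.31% (IV) and −4.57% (V). Total-count scaling differs from the deposited scale by a factor for each library that all its genes share. The median of all tested genes moved with it, from −0.0005 to 0.073. The cause of the shifts on leaving out a library was not tested. Of 433 values of the 29 genes named by rule, 425 kept their side of the threshold and 8 passed it. These counts concern calls and not signs, and none of the 29 genes was called in the main fit. Signs did change between settings for some genes with small changes. Cox4i1 was at −0.11 in the main fit and at 0.01 under quantile normalization. Atp5g2 was at 0.02 in the main fit and at −0.10 without Shh null 1.

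The replicate numbers are not said to pair libraries. With the replicate block 220 genes were called higher and 176 lower, 0 of them subunit genes. Same-numbered libraries deviated with a correlation of −0.20 over 2 pairs. With the crossed replicate block, chosen after seeing the data, 641 of the 13224 tested genes were called higher and 745 lower. Of the 73 subunit genes 0 were then called higher and 4 lower, a share lower near that of all tested genes. Depth limited Cox6b2 and Cox4i2, at under 5 CPM.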

Other observations

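Genes of 2 other large protein complexes, chosen after the data were seen, were also mostly below 0 on the deposited scale. Of 36 tested proteasome genes (symbols Psma to Psmd), 35 were below 0 (30 under total-count scaling) and the median log2 fold change was −0.18. By limma 0 were called and 4 had an unadjusted p under 0.05, all lower (11.1%, against 9.02% of all tested genes). Both Shh null libraries were below both wild-type libraries for 23 of the 36 (63.9%, against 25.0% of all tested genes; 36.1% against 16.1% under total-count scaling). Of 69 tested cytosolic ribosome genes, 59 were below 0 (38 under total-count scaling, 27 under quantile normalization) and the median was −0.09. Limma called 0 of them and gave 1 an unadjusted p under 0.05, lower (1.45%, against 9.02% of all tested genes). Both null libraries were below both wild-type libraries for 4 of these 69 (5.8%), and 59 of them (85.5%, against 29.1% of all tested genes) were higher in wild type 1 than 2 and in Shh null 2 than 1.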
